A study of Schizosaccharomyces pombe with 10 samples.

Results

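Fission yeast cultures treated with camptothecin were compared with untreated cultures of the same strain in 4 RNA-seq libraries, 2 per group, out of 10 libraries in the whole study. All libraries came from total RNA of Schizosaccharomyces pombe strain PT286, titled wild type and grown at 30 °C in YES, a rich yeast extract medium. The treated cells had 16 h of culture, a change of medium and 8 h with 20 µM camptothecin. For untreated cells no label tells the time of harvest or whether the medium was changed, so the agent and these steps cannot be told apart against untreated cells. The other 6 libraries, 2 each with hydroxyurea (10 mM), methyl methanesulfonate (MMS, 0.02 %) and phleomycin (5 µg/mL) for 8 h, were used to estimate the spread between libraries and in 1 further comparison. The table held 6661 annotated features, 5132 of them protein-coding, and 5734 had enough counts to be tested. Library totals were 48598533 and 38048836 counts with camptothecin and 40397014 and 45185548 counts in untreated cells.

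Topoisomerase I relaxes twisted DNA by cutting a single strand, letting it turn and sealing it again. Camptothecin, a plant alkaloid, binds the enzyme while it is joined to the cut strand and keeps it there, and a replication fork that runs into such a complex can turn the nick into a broken end. In fission yeast the genes next to the ends of chromosomes I and II include many for membrane transporters, cell surface proteins and oxidoreductases, lie near heterochromatin, and often have close copies at other ends.

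The transcriptome as a whole moved, mostly by small amounts. Levels are given as CPM (read counts scaled to a common library size by TMM), and the log2 fold change is camptothecin over untreated ± SE, from edgeR's quasi-likelihood test with Benjamini-Hochberg adjustment over all features tested. A feature rose or fell where its adjusted p was under 0.05. By that rule 2021 features (35.2 %) rose and 2059 (35.9 %) fell, and the median absolute log2 fold change over tested features was 0.30. A change of 2-fold or more past the threshold was found for 366 features upwards (6.38 %) and 84 downwards (1.46 %), 7.85 % in either direction. Among the 4718 tested protein-coding genes, 34.7 % rose, 40.8 % fell, 3.82 % rose 2-fold or more and 1.1 % fell 2-fold or more. Since most features pass the test, a further call was used for steady genes: a feature held within 1.2-fold where the whole 95 % interval of its log2 fold change lay inside that bound. That call was met by 1273 features (22.2 %), 1252 of them protein-coding (26.5 % of the protein-coding genes). Whether libraries of the same group stem from separate cultures is not stated, so the p-values and intervals may measure technical spread alone.

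The gene for the drug's target changed little. The topoisomerase I gene top1 had 199.5 and 210.1 CPM with camptothecin and 233 and 227 CPM in untreated cells, and its log2 fold change was -0.17 ± 0.029 with a 95 % interval of -0.24 to -0.09. Its value lay just below untreated cells in both camptothecin libraries and passed the test (edgeR adjusted p = 6.79e-07). The topoisomerase II gene top2, whose product passes DNA duplexes through each other, had 239 and 233 CPM with camptothecin and 255 and 253 CPM in untreated cells (95 % interval of the log2 fold change -0.16 to -0.04). Both genes passed the test and held within 1.2-fold. For top1 the interval reached past that bound without untreated replicate 2 (to -0.29) and without camptothecin replicate 2 (to -0.30), and for top2 in none of the 4 cases. The genes tdp1, for the enzyme that removes trapped topoisomerase I from DNA ends, and top3, for topoisomerase III, are covered over 79.3 % and 100 % of their length by other annotated features, so their counts are uncertain. For tdp1 these were 14.6 and 14.7 CPM with camptothecin and 12.9 and 10.3 CPM in untreated cells, a rise (log2 fold change 0.34 ± 0.12, edgeR adjusted p = 0.011) that missed the threshold under quantile normalization and without untreated replicate 2. All 4 values of top3 were under 0.5 CPM.

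The 10 largest rises among protein-coding genes included 5 genes for enzymes that act on small molecules. They were taken from genes at 20 CPM or more in the higher group, with no near-identical copy and not overlapped by other features along 75 % or more of their length. The catechol O-methyltransferase gene cmt2, whose product methylates catechols, had 2725 and 2713 CPM with camptothecin and 109 and 108 CPM in untreated cells, which is 25.1-fold higher (log2 fold change 4.65 ± 0.022, edgeR adjusted p = 2.19e-83). Its paralogue cmt1 had 2248 and 2263 CPM with camptothecin and 277 and 284 CPM in untreated cells (log2 fold change 3.01 ± 0.019, edgeR adjusted p = 6.90e-77). In both genes the camptothecin libraries lay far above the untreated ones, and the libraries of a group differed little.

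The nitric oxide dioxygenase gene yhb1, for a flavohaemoglobin that detoxifies nitric oxide, had 1929 and 1902 CPM with camptothecin and 184 and 185.8 CPM in untreated cells (log2 fold change 3.37 ± 0.021, edgeR adjusted p = 5.21e-77). A gene annotated as a hydroxyacid dehydrogenase, SPAC186.07c, had 84.6 and 82.0 CPM with camptothecin and 0.932 and 0.699 CPM in untreated cells, the largest log2 fold change of the 10 (log2 fold change 6.68 ± 0.13, edgeR adjusted p = 2.14e-48). The aldo/keto reductase family gene SPAC750.01 had 323 and 320.1 CPM with camptothecin and 51.4 and 49.0 CPM in untreated cells (log2 fold change 2.68 ± 0.031, edgeR adjusted p = 4.15e-61). The other 5 genes have less annotation. The reference calls SPAPB1A11.06 and SPCC737.04 uncharacterized, SPAPJ691.02 yippee-like, mde6 a muskelin and mug133 only by its name. SPCC737.04 had 603 and 605 CPM with camptothecin and 76.6 and 76.0 CPM in untreated cells. SPAPB1A11.06 had 36.3 and 37.5 CPM with camptothecin and 2.28 and 1.96 CPM in untreated cells. Log2 fold changes of the 5 ran from 2.53 ± 0.083 in SPAPJ691.02 to 4.13 ± 0.12 in SPAPB1A11.06, and mde6 (107 and 103 CPM with camptothecin and 13.1 and 14.9 CPM in untreated cells) is covered by other features over 73.8 % of its length, just under the limit of 75 % used here.

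The 10 largest falls included 5 genes for transporters of peptides, siderophores, gluconate and amino acids. The gene SPAC1039.02, annotated as a phosphoprotein phosphatase, had 111 and 106 CPM with camptothecin and 771 and 768 CPM in untreated cells (log2 fold change -2.82 ± 0.023, edgeR adjusted p = 1.67e-69). The peptide transporter gene ptr2 had 34.3 and 39.1 CPM with camptothecin and 226 and 221 CPM in untreated cells (log2 fold change -2.61 ± 0.042, edgeR adjusted p = 2.33e-53). The siderophore transporter gene str1, for import of iron bound to ferrichrome, had 68.8 and 73.5 CPM with camptothecin and 356 and 358 CPM in untreated cells (log2 fold change -2.33 ± 0.030, edgeR adjusted p = 1.22e-58). As for the rises, groups that do not overlap were a condition for the list, and 84.2 % of all tested features met it.

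Further transporters among the 10 were ght3, for gluconate, SPBPB10D8.01, for cysteine, and SPAC1039.01, an amino acid permease. The gene ght3 had 8.93 and 9.88 CPM with camptothecin and 40.8 and 41.4 CPM in untreated cells. SPBPB10D8.01 had 18.5 and 18.4 CPM with camptothecin and 65.1 and 64.1 CPM in untreated cells. The gene SPAC1039.01 had 20.2 and 21.2 CPM with camptothecin and 68.8 and 71.8 CPM in untreated cells. Their log2 fold changes were -2.13 ± 0.082, -1.81 ± 0.059 and -1.77 ± 0.061. Outside transport, the DIPSY family glycoprotein gene pfl7 had 4.62 and 4.43 CPM with camptothecin and 28.5 and 24.7 CPM in untreated cells, and the But2 family gene SPAC27D7.11c had 38.8 and 39.97 CPM with camptothecin and 224 and 220.3 CPM in untreated cells. The remaining members were sod1, described with the copper genes, and SPBC460.05 (log2 fold change -2.65 ± 0.078), an identifier that the reference does not annotate. Whether SPBC460.05 is protein-coding, covered or copied could therefore not be checked.

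**Figure D1:**
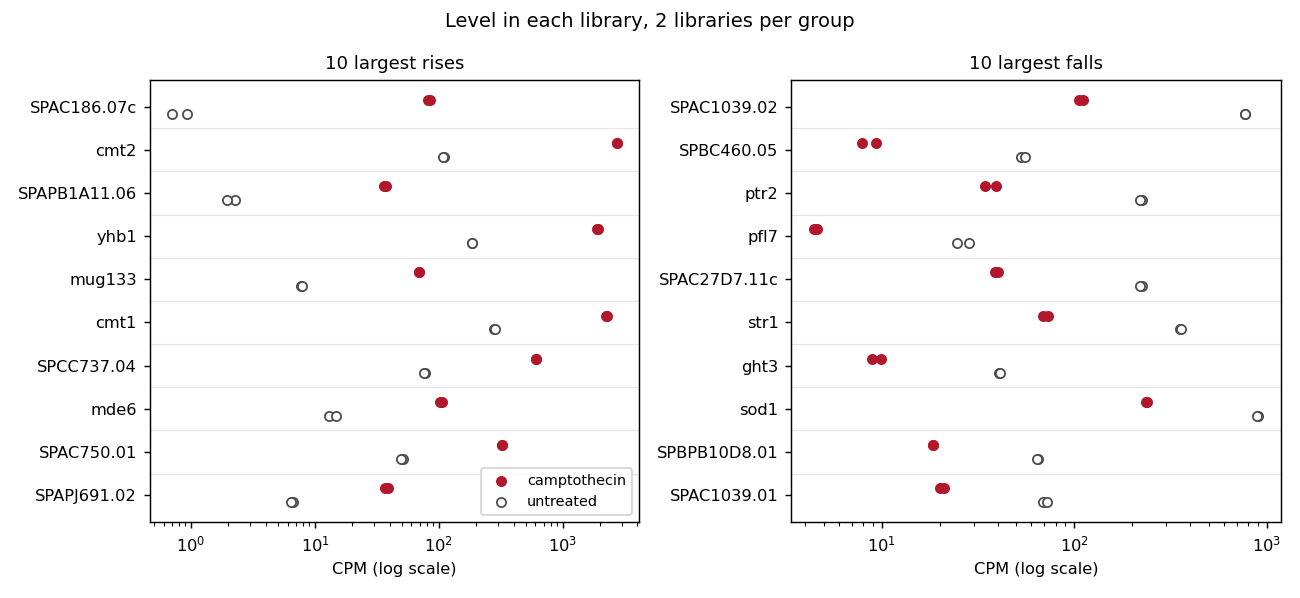
CPM on a log axis in each library for the 10 largest rises (left panel) and the 10 largest falls (right panel); filled points are the 2 camptothecin libraries and open points the 2 untreated libraries of each gene. The 2 groups do not overlap in any of the 20 genes, as the rule for choosing them required, and cmt2 lies at 2725 and 2713 CPM with camptothecin against 109 and 108 CPM in untreated cells.

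Large changes in both directions were found among genes near the ends of chromosomes I and II. Subtelomeric genes are here the 40 outermost protein-coding genes at each of the 4 ends, 160 in all by the order of the reference annotation. Of the 128 that could be tested, 62 rose and 36 fell (48.4 and 28.1 %, against 34.7 and 40.8 % of all protein-coding genes). Of the 128, 30 did not pass, 32 rose 2-fold or more and 9 fell 2-fold or more. Thus 32.0 % of them passed a 2-fold change, against 4.92 % of all tested protein-coding genes, and 5.47 % held within 1.2-fold, against 26.5 %. With each of the 4 libraries left out in turn, 2 to 4 genes held in place of 7. No feature with a mean under 10 CPM over the 10 libraries held. At a mean of 10 CPM or more, 9.09 % of 77 subtelomeric genes held, against 29.8 % of 4202 protein-coding genes. Over the 128 tested genes the median absolute log2 fold change was 0.64, against 0.27 over all protein-coding genes. Their summed share of all counts was 1.60 and 1.59 % with camptothecin and 1.1 % in both untreated libraries. Most of this gap lies in cmt2 and yhb1: without these genes the share was 1.16 % in both camptothecin libraries and 1.07 % in both untreated ones. The 32 genes that were not tested reached at most 0.224 CPM in any library, and 26 of them have near-identical copies.

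The excess of rises over falls was smaller without low genes and copies. At a mean of 10 CPM or more over the 10 libraries, 77 subtelomeric genes remained, of which 39 rose and 31 fell, 14 and 9 of these 2-fold or more, and 29.9 % changed 2-fold or more, against 3.66 % of the 4202 protein-coding genes at that level. Among the 81 tested genes neither covered by other features nor copied, 37 rose and 28 fell, 15 and 8 of these 2-fold or more. With both conditions 63 genes were left, of which 29 rose and 27 fell, 9 and 8 of these 2-fold or more. A mean over all libraries keeps genes that are near 0 in untreated cells and high with camptothecin, such as SPAC186.07c, so these counts are a description. Low features in general leaned upwards: the median log2 fold change was 0.29 for the 341 tested features under 1 CPM and 0.23 for the 917 between 1 and 10 CPM, and -0.32 and -0.10 for the same features under quantile normalization. The part of this in the subtelomeric counts was not tested.

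The share of large changes was lower further from the ends. Of the tested genes, 12 of 20 rose and 1 fell at positions 1 to 10 from an end, 14 of 35 rose and 9 fell at positions 11 to 20, and 36 of 73 rose and 26 fell at positions 21 to 40. In that order, 45.0, 34.3 and 27.4 % changed 2-fold or more. Over all tested protein-coding genes, 34.7 % rose, 40.8 % fell and 4.92 % changed 2-fold or more. Most tested genes at positions 1 to 10 are covered or have a near-identical copy, so their counts are uncertain. Most of them also had a mean under 10 CPM over the 10 libraries. At positions 41 to 80, 57 of 149 rose and 59 fell, 5.37 % changed 2-fold or more and 26.8 % held, against 4.10 % and 27.5 % of the genes further in. The 4 ends were not alike. At the right end of chromosome I, 20 of 33 tested genes rose and 7 fell, and 16 rose 2-fold or more, while at the right end of chromosome II 14 of 32 rose and 11 fell and 4 rose 2-fold or more. The ends of chromosome III, which the definition leaves out, had 4 genes that rose 2-fold or more and none that fell as much among 75 tested. That is 5.33 % changed 2-fold or more, near the 4.92 % of all protein-coding genes.

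**Figure D2:**
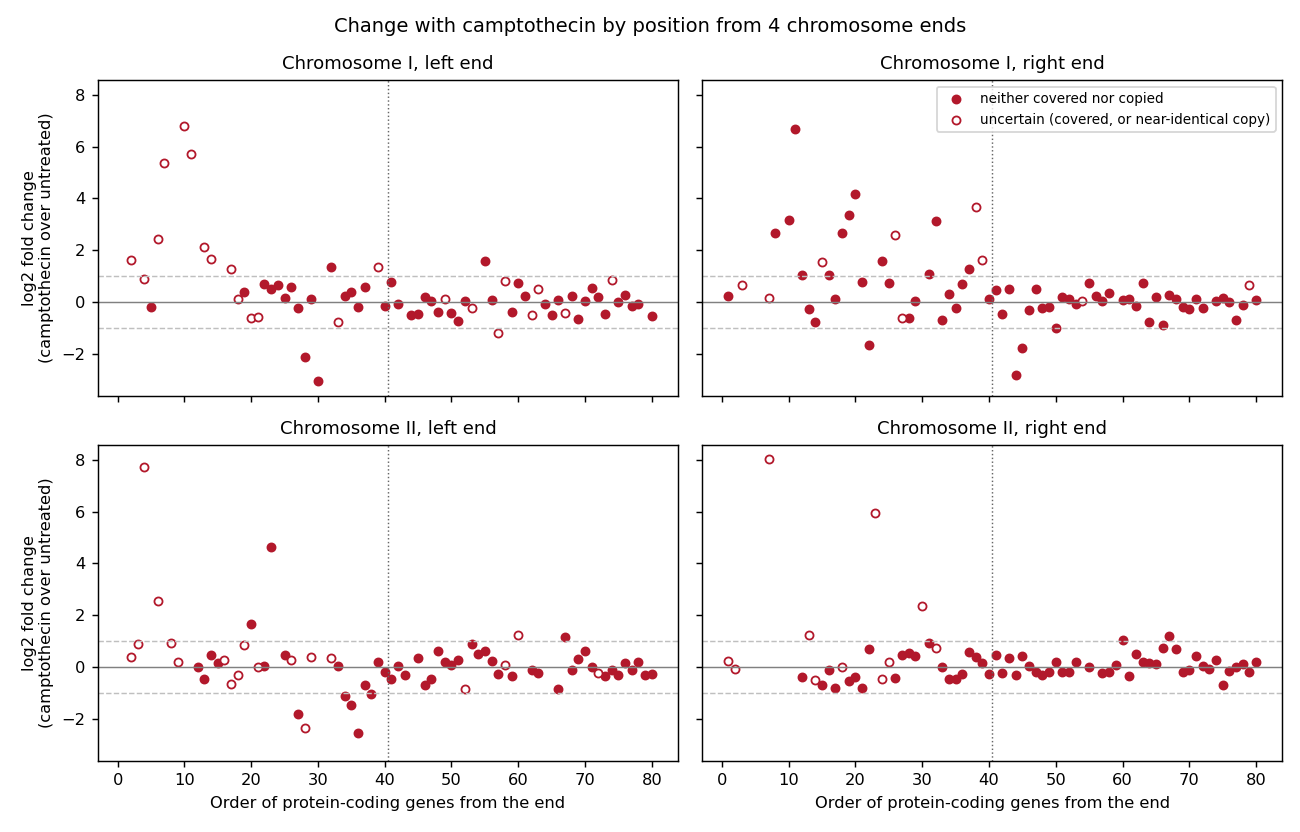
Log2 fold change (camptothecin over untreated) of each tested protein-coding gene against its order from the end, for the 2 ends of chromosomes I and II; open points are genes with a near-identical copy or overlapped by other features along at least 75 % of their length, dashed lines mark 2-fold and the dotted line the 40th gene. Points reach 8.03 within the outermost 40 genes, and beyond them 5.37 % of tested genes passed a 2-fold change.

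The right end of chromosome I holds 3 of the 10 largest rises. Counting from the end, SPAC750.01 is gene 8, SPAC186.07c gene 11 and yhb1 gene 19. Between them lies SPAC186.08c, an L-lactate dehydrogenase gene named here after its values were seen, which had 10.3 and 8.49 CPM with camptothecin and 0.802 and 1.26 CPM in untreated cells (log2 fold change 3.18 ± 0.18, edgeR adjusted p = 3.29e-24). Some genes further in at the same end went the other way. The sulphate transporter gene sul2, gene 22, had 113 and 111 CPM with camptothecin and 344 and 355 CPM in untreated cells (log2 fold change -1.64 ± 0.033, edgeR adjusted p = 3.47e-48). Both cat1 and SPAC1039.02 further in also fell. The aldehyde dehydrogenase gene atd2, gene 29 and likewise named after its values were seen, had 21.7 and 21.3 CPM with camptothecin and 21.3 and 21 CPM in untreated cells and did not pass. It held within 1.2-fold, but not without untreated replicate 1 or either camptothecin library.

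The left end of chromosome II combined a large rise with falls. The gene cmt2 is gene 23 there. Genes 34 to 38, 5 neighbours picked out after their values were seen, all fell: alr2, an alanine racemase gene, the amino acid permease gene aat1, pfl7, the transporter gene abc3 and mug14, annotated as an adducin. Among these aat1 had 397 and 402 CPM with camptothecin and 1104 and 1107 CPM in untreated cells (log2 fold change -1.47 ± 0.019, edgeR adjusted p = 7.02e-59). The gene mug14 had 58.5 and 62.0 CPM with camptothecin and 122 and 124 CPM in untreated cells. At the left end of chromosome I, 2 of 3 neighbours for uptake fell: ght3, gene 28, given above, and str3, gene 30, a siderophore transporter gene with 1.47 and 1.36 CPM with camptothecin and 11.4 and 12.5 CPM in untreated cells (log2 fold change -3.06 ± 0.11, edgeR adjusted p = 4.86e-34). Between them shu1, for a haem receptor, stood at 0.195 CPM or less in all 4 libraries.

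Several of the highest subtelomeric fold changes belong to genes whose reads cannot be assigned to a single place. SPBPB2B2.18 had 390.4 and 378 CPM with camptothecin and 1.55 and 1.40 CPM in untreated cells, SPAC977.18 had 114 and 111 CPM with camptothecin and 0.440 and 1.51 CPM in untreated cells, and both have near-identical copies. The membrane protein genes ftm2 (12.6 and 13.2 CPM with camptothecin and 0.259 and 0.233 CPM in untreated cells) and ftm6 (11.2 and 10.6 CPM with camptothecin and 0.0518 and 0.0466 CPM in untreated cells) are copied over their whole length, and fub2 (32.1 and 34.0 CPM with camptothecin and 0.673 and 0.396 CPM in untreated cells) is covered by other features over 80.7 %. In these 5 genes both camptothecin libraries lay above 10 CPM and both untreated libraries below 2 CPM, and the counts do not say which copy or overlapping feature the reads came from.

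Of 6 tested subtelomeric genes with oxidoreductase wording in their annotation, 5 rose 2-fold or more and 1, atd2, did not pass. Over all 104 tested oxidoreductase genes 43 rose and 41 fell (41.3 and 39.4 %, against 34.7 and 40.8 % of all protein-coding genes). Of the 104, 14.4 % changed 2-fold or more, against 4.92 % of all protein-coding genes. Of the 5, SPAC186.07c, SPAC186.08c and yhb1 are given above, while ayr2, which has a near-identical copy, and SPAC186.02c stood under 2 CPM in all 4 libraries. The subtelomeric galactose genes moved in both directions. The galactokinase gene gal1 and the uridylyltransferase gene gal7 fell, with 37.0 and 34.4 CPM with camptothecin and 58.5 and 56.9 CPM in untreated cells for gal7 (log2 fold change -0.69 ± 0.055, edgeR adjusted p = 1.43e-17). The melibiase gene mel1 rose, with 3.27 and 3.62 CPM with camptothecin and 1.04 and 1.26 CPM in untreated cells, and the epimerase gene gal10 rose as well but is covered over 93.7 % of its length.

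Of 12 tested copper genes 5 rose and 4 fell (41.7 and 33.3 %, near the 34.7 and 40.8 % of all protein-coding genes), and 3 did not pass. The genes ctr6, ccc2 and atx1 held within 1.2-fold, but atx1 did so in the full set of libraries and not without untreated replicate 1, untreated replicate 2 or camptothecin replicate 1. The uptake genes ctr4 and ctr5, whose products form the high-affinity copper importer, both rose: ctr4 had 294 and 299.9 CPM with camptothecin and 142 and 151 CPM in untreated cells (log2 fold change 1.02 ± 0.029, edgeR adjusted p = 1.87e-39). The gene ctr5 had 286 and 284 CPM with camptothecin and 187 and 183 CPM in untreated cells (log2 fold change 0.62 ± 0.028, edgeR adjusted p = 3.46e-29). The copper-sensing activator gene cuf1, which switches these on in low copper, fell slightly, with 46.1 and 45.2 CPM with camptothecin and 57.6 and 56.8 CPM in untreated cells (log2 fold change -0.32 ± 0.056, edgeR adjusted p = 6.13e-07). The vacuolar exporter gene ctr6 held, at 117 and 112 CPM with camptothecin and 120.1 and 119.7 CPM in untreated cells (95 % interval -0.16 to 0.03).

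Of the copper-using enzymes 1 fell and 2 rose. The copper-zinc superoxide dismutase gene sod1 had 239.6 and 236 CPM with camptothecin and 907 and 894 CPM in untreated cells, which is 3.79-fold lower (log2 fold change -1.92 ± 0.019, edgeR adjusted p = 2.34e-65). The gene for its copper chaperone, ccs1, fell by less, with 136 and 132 CPM with camptothecin and 169 and 163 CPM in untreated cells (log2 fold change -0.30 ± 0.030, edgeR adjusted p = 3.80e-14). The other delivery genes stayed near their level: ccc2, for the ATPase that loads copper in the Golgi, had 156 and 159 CPM with camptothecin and 155 and 159 CPM in untreated cells and a 95 % interval of -0.07 to 0.08, and the chaperone gene atx1 fell by little (98.9 and 97.3 CPM with camptothecin and 108 and 109 CPM in untreated cells). The mitochondrial chaperone gene cox17 (9.39 and 10.9 CPM with camptothecin and 12.1 and 11.3 CPM in untreated cells) neither passed nor held. The metallothionein gene zym1, for a small metal-binding protein, had 258 and 261 CPM with camptothecin and 109 and 107 CPM in untreated cells (log2 fold change 1.27 ± 0.025, edgeR adjusted p = 1.94e-48). The amine oxidase gene cao1 rose too (log2 fold change 0.44 ± 0.043). The gene cao2 is covered over 94.5 % of its length and stayed under 4 CPM.

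Of 25 tested iron genes 8 rose and 14 fell (32.0 and 56.0 %, against 34.7 and 40.8 % of all protein-coding genes), 3 did not pass and 2 held. Among uptake genes the permease-oxidase pair fell: fio1 had 32.6 and 29.7 CPM with camptothecin and 76.4 and 76.4 CPM in untreated cells (log2 fold change -1.29 ± 0.039, edgeR adjusted p = 1.82e-38). The gene fip1 had 10.6 and 10.4 CPM with camptothecin and 15.7 and 17.3 CPM in untreated cells. The reductase gene frp1 also fell, with 118 and 120.3 CPM with camptothecin and 166 and 164 CPM in untreated cells, as did str1 and str3 above. Against these, the genes for making the siderophore ferrichrome rose: sib1, for its synthetase, had 950.4 and 929.9 CPM with camptothecin and 503 and 491 CPM in untreated cells (log2 fold change 0.92 ± 0.018, edgeR adjusted p = 3.67e-48). Its neighbour sib2, for an ornithine monooxygenase, had 154 and 152 CPM with camptothecin and 78.6 and 79.8 CPM in untreated cells (log2 fold change 0.95 ± 0.037, edgeR adjusted p = 2.82e-32). The reductase gene frp2 rose to 9.82 and 9.71 CPM, against 4.42 and 4.38 CPM in untreated cells.

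Iron regulator genes mostly fell, 5 of 6, against 40.8 % of all protein-coding genes. The repressor gene fep1, which shuts uptake genes off in high iron, had 62.6 and 62.8 CPM with camptothecin and 146 and 142 CPM in untreated cells (log2 fold change -1.20 ± 0.040, edgeR adjusted p = 8.14e-36). The gene php4, for the factor that turns iron-using genes down in low iron, had 44.5 and 44.9 CPM with camptothecin and 72.4 and 72.8 CPM in untreated cells (log2 fold change -0.70 ± 0.049, edgeR adjusted p = 4.28e-20). Of the 6 regulator genes 5 fell and php3, at 4.06 CPM or less, did not pass; the small fall of php2 (log2 fold change -0.15 ± 0.060) missed the threshold when untreated replicate 2 or either camptothecin library was left out. Vacuolar transporters diverged: pcl1 rose to 449 and 443 CPM, against 297 and 284 CPM in untreated cells, and abc3 fell to 59.7 and 60.9 CPM, against 97.2 and 96.5 CPM in untreated cells. Of 7 genes for iron-using proteins 3 rose, 3 fell and 2 held. The succinate dehydrogenase gene sdh1 had 794 and 788 CPM with camptothecin and 779 and 783 CPM in untreated cells (95 % interval -0.03 to 0.06) and glt1, for glutamate synthase, held as well, while rli1, for an iron-sulphur protein of ribosome recycling, fell to 247 and 248 CPM, against 369 and 361 CPM in untreated cells.

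Zinc and cadmium genes mostly changed by less than 2-fold. Among 8 tested zinc genes 2 rose and 5 fell, against 34.7 and 40.8 % of all protein-coding genes. Of the 8, 3 held within 1.2-fold, 1 without untreated replicate 1 and 0 with the 4 libraries alone. The gene zym1, counted with copper too, was the single member past 2-fold. The uptake gene zrt1 had 237 and 230.1 CPM with camptothecin and 312 and 301 CPM in untreated cells (log2 fold change -0.39 ± 0.025, edgeR adjusted p = 5.79e-22). The gene zhf1, for zinc import into the endoplasmic reticulum, had 169 and 168 CPM with camptothecin and 154 and 150.2 CPM in untreated cells. The small falls of zrg17, cis4 and the regulator gene loz1 each missed the threshold when certain single libraries were left out, and without untreated replicate 2 or camptothecin replicate 2 the list had 3 falls in place of 5. Of 7 tested genes for cadmium and thiol detoxification, 4 fell and 1 rose (57.1 and 14.3 %, against 40.8 and 34.7 % of all protein-coding genes). The other 2 held. The sulphide-quinone oxidoreductase gene hmt2 fell, with 323 and 324 CPM with camptothecin and 553 and 540 CPM in untreated cells (log2 fold change -0.76 ± 0.021, edgeR adjusted p = 4.23e-40). The gene abc4, for a vacuolar glutathione conjugate and phytochelatin transporter, fell to 266 and 264 CPM, against 382 and 375 CPM in untreated cells. The related gene abc2 rose to 489 and 503 CPM, against 344 and 355 CPM in untreated cells, and gcs1, for the first step of glutathione synthesis, had 472 and 471 CPM with camptothecin and 467 and 465 CPM in untreated cells and held.

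**Figure D3:**
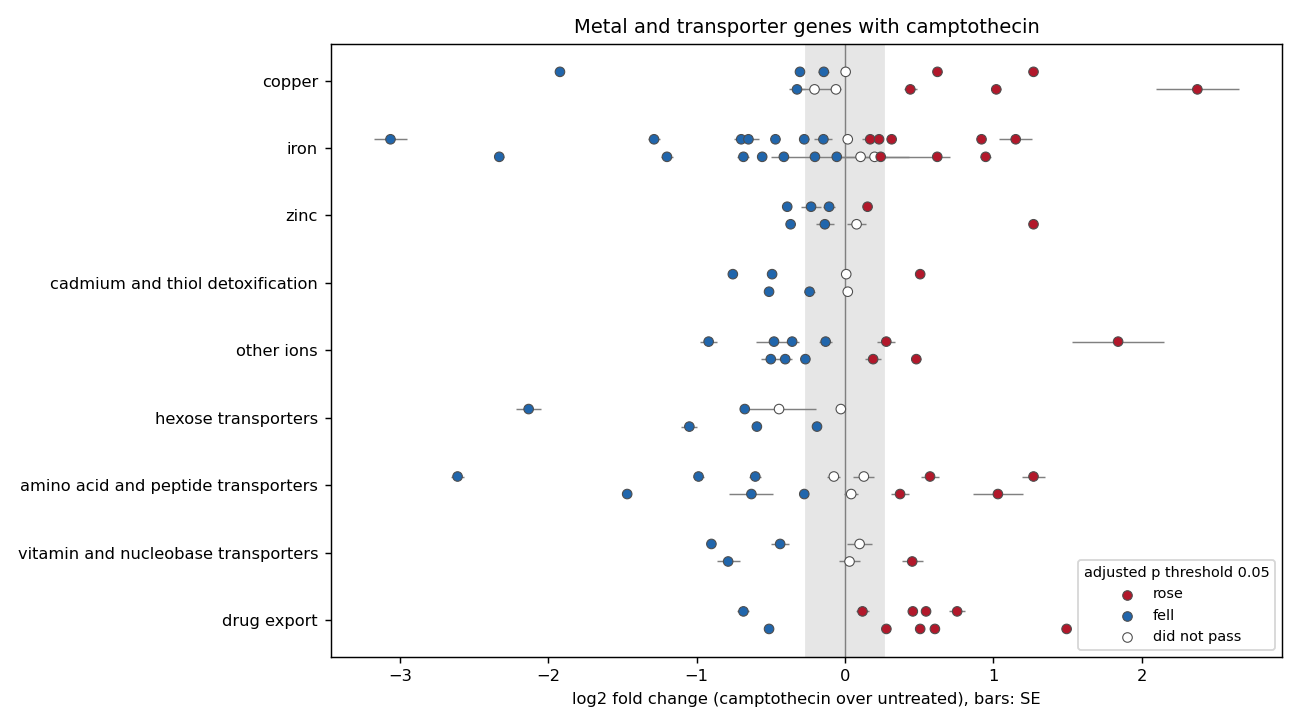
Log2 fold change (camptothecin over untreated, bars are SE) of every tested member of 9 lists of metal and transporter genes; red points rose, blue points fell, white points did not pass, and the grey band marks 1.2-fold. No hexose transporter gene lies to the right of 0, and 8 of 10 drug export genes rose.

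Transporter genes changed 2-fold or more at a higher share than protein-coding genes as a whole. Of 203 tested genes with transporter wording in their annotation, 65 rose and 92 fell (32.0 and 45.3 %, near the 34.7 and 40.8 % of protein-coding genes). Of the 203, 42 held and 12.3 % changed 2-fold or more, against 4.92 % of protein-coding genes. The 23 that are subtelomeric had 39.1 % past 2-fold, and the 180 others had 8.89 %, against 4.16 % of all protein-coding genes outside the subtelomeres. Genes of the hexose transporter family did not rise: of 7 tested 5 fell (71.4 %, against 40.8 % of all protein-coding genes) and 2 did not pass. The falls of 2-fold or more were those of ght1 and ght3, of which ght3 is the gluconate transporter gene named above. The high-affinity glucose transporter gene ght5 had 713 and 710.2 CPM with camptothecin and 1083 and 1066 CPM in untreated cells (log2 fold change -0.59 ± 0.019, edgeR adjusted p = 1.29e-37). The gene ght1 had 34.9 and 32.5 CPM with camptothecin and 71.9 and 67.8 CPM in untreated cells (log2 fold change -1.05 ± 0.055, edgeR adjusted p = 4.12e-26). Of the same family, ght8, which fell by less, (918 and 914 CPM with camptothecin and 1059 and 1029.6 CPM in untreated cells) and ght2 (407 and 411 CPM with camptothecin and 407 and 426 CPM in untreated cells) held within 1.2-fold, ght8 not without untreated replicate 2.

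Of 13 tested genes for amino acid and peptide uptake, 4 rose and 6 fell (30.8 and 46.2 %, near the 34.7 and 40.8 % of all protein-coding genes), and 3 did not pass. Besides ptr2 and aat1, the glutathione transporter gene pgt1 fell, with 82.5 and 81.6 CPM with camptothecin and 163 and 162 CPM in untreated cells (log2 fold change -0.99 ± 0.036, edgeR adjusted p = 5.31e-34). The arginine and lysine permease gene cat1 fell to 75.9 and 79.4 CPM, against 113 and 123 CPM in untreated cells. The permease gene isp5 rose, with 29.4 and 29.3 CPM with camptothecin and 11.5 and 12.8 CPM in untreated cells (log2 fold change 1.27 ± 0.077, edgeR adjusted p = 6.26e-23). The gene isp4, for oligopeptide uptake, also rose, with 36.3 and 33.5 CPM with camptothecin and 22.6 and 24.4 CPM in untreated cells. The permease gene per1 (60.7 and 61.8 CPM with camptothecin and 64.3 and 64.8 CPM in untreated cells) and the vacuolar gene fnx2 (60.1 and 56.4 CPM with camptothecin and 57.4 and 56.0 CPM in untreated cells) held.

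Drug export genes mostly rose. Of 10 tested, 8 rose and 2 fell, against 34.7 and 40.8 % of protein-coding genes in those directions. The major facilitator gene mfs1 rose the most, with 253 and 245 CPM with camptothecin and 88.7 and 88.5 CPM in untreated cells (log2 fold change 1.49 ± 0.033, edgeR adjusted p = 7.58e-46). The ABC transporter genes abc1, with 229 and 229 CPM with camptothecin and 153 and 148 CPM in untreated cells (log2 fold change 0.61 ± 0.024, edgeR adjusted p = 1.77e-32), and pmd1, an efflux pump that confers drug resistance, with 422 and 427 CPM with camptothecin and 314 and 305 CPM in untreated cells (log2 fold change 0.46 ± 0.022, edgeR adjusted p = 5.68e-28), rose by less than 2-fold. The rise of caf5 (0.12 ± 0.044) missed the threshold without untreated replicate 1 or camptothecin replicate 2, and its change lay within 1.2-fold. The 2 falls were abc3 and abc4, given above.

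Of 11 tested genes for transport of other ions, 4 rose and 7 fell (36.4 and 63.6 %, against 34.7 and 40.8 % of all protein-coding genes). The single 2-fold change, in amt3, is uncertain, since the gene is covered over 98.6 % of its length and stood under 3 CPM in all 4 libraries. Among the calcium genes, pmc1, for a vacuolar calcium pump, rose to 184 and 191 CPM, against 130.2 and 138 CPM in untreated cells (log2 fold change 0.48 ± 0.034, edgeR adjusted p = 9.77e-20). The gene pmr1, for a Golgi calcium pump, fell to 593 and 602 CPM, against 723 and 715 CPM in untreated cells. The biotin transporter gene vht1 fell, with 262 and 259.9 CPM with camptothecin and 489 and 487 CPM in untreated cells (log2 fold change -0.90 ± 0.021, edgeR adjusted p = 3.49e-44). The gene tna1, for nicotinic acid, fell as well, with 10.97 and 11.6 CPM with camptothecin and 19.0 and 19.9 CPM in untreated cells. The myo-inositol transporter gene itr2 rose, with 442 and 445 CPM with camptothecin and 227 and 238 CPM in untreated cells (log2 fold change 0.93 ± 0.024, edgeR adjusted p = 7.72e-42). The ATP and ADP exchanger gene anc1 of mitochondria had 659 and 669 CPM with camptothecin and 609.9 and 622 CPM in untreated cells and held.

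Lipid synthesis genes leaned downwards, and sterol genes moved in both directions. Of 17 tested lipid synthesis genes 3 rose and 12 fell (17.6 and 70.6 %, against 34.7 and 40.8 % of all protein-coding genes). Among the 10 of them for phospholipids and storage, 3 rose and 5 fell, near those shares of all protein-coding genes. All 7 tested genes for fatty acid synthesis and activation fell, by log2 fold changes of -0.81 to -0.09. The desaturase gene ole1 had 246 and 257 CPM with camptothecin and 434 and 448 CPM in untreated cells (log2 fold change -0.81 ± 0.025, edgeR adjusted p = 2.33e-38). The gene cut6, for acetyl-CoA carboxylase, had 1438 and 1438 CPM with camptothecin and 2079.9 and 2104 CPM in untreated cells (log2 fold change -0.54 ± 0.016, edgeR adjusted p = 4.82e-39). The fatty acid synthase genes fas1 (1988 and 1968 CPM with camptothecin and 2136 and 2150.4 CPM in untreated cells) and fas2 (782 and 776 CPM with camptothecin and 821 and 834 CPM in untreated cells) fell too but held within 1.2-fold, and both missed the threshold under quantile normalization. Of 10 tested genes for sterol and haem synthesis, 5 rose and 5 fell, against 34.7 and 40.8 % of all protein-coding genes. In sterol synthesis erg1, for squalene monooxygenase, rose, with 317 and 315 CPM with camptothecin and 128 and 124 CPM in untreated cells (log2 fold change 1.33 ± 0.029, edgeR adjusted p = 1.01e-45). The gene hmg1, for the reductase that makes mevalonate, fell, with 186.4 and 176 CPM with camptothecin and 291 and 290.1 CPM in untreated cells (log2 fold change -0.68 ± 0.028, edgeR adjusted p = 5.53e-31). The gene scp1, for the protein that escorts the sterol-sensing activator Sre1, held (394 and 390.2 CPM with camptothecin and 404 and 405 CPM in untreated cells).

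Single genes of central metabolism and regulation ranged from changes past 2-fold to genes that held. The malic enzyme gene mae2 had 658 and 651 CPM with camptothecin and 1715 and 1726 CPM in untreated cells (log2 fold change -1.39 ± 0.018, edgeR adjusted p = 5.58e-59). The aldehyde dehydrogenase gene atd1 had 782 and 785 CPM with camptothecin and 1789 and 1806 CPM in untreated cells (log2 fold change -1.20 ± 0.017, edgeR adjusted p = 7.53e-57). In glycolysis gpd3, for a glyceraldehyde 3-phosphate dehydrogenase, rose, with 345 and 356 CPM with camptothecin and 97.6 and 100.3 CPM in untreated cells (log2 fold change 1.82 ± 0.024, edgeR adjusted p = 5.44e-58). The gene gnd1 of the pentose phosphate pathway (2350.4 and 2389.5 CPM with camptothecin and 2562 and 2594 CPM in untreated cells) held. Among 114 tested transcription factor genes 38 rose and 51 fell (33.3 and 44.7 %, near the 34.7 and 40.8 % of all protein-coding genes). Of these 114 genes, 33 held. The calcineurin-responsive factor gene prz1 had 241 and 249.7 CPM with camptothecin and 117 and 119.5 CPM in untreated cells (log2 fold change 1.05 ± 0.034, edgeR adjusted p = 7.88e-37). Among 91 tested protein kinase genes 27 rose and 38 fell (29.7 and 41.8 %, again against 34.7 and 40.8 %), and 28 held. The catalytic subunit gene pka1 of the cAMP-dependent kinase fell, with 224 and 220.2 CPM with camptothecin and 389 and 388 CPM in untreated cells (log2 fold change -0.81 ± 0.026, edgeR adjusted p = 1.19e-36). The gene tor2, for the kinase of the TORC1 growth complex, held, with 294 and 289 CPM with camptothecin and 290 and 291 CPM in untreated cells (95 % interval -0.06 to 0.07).

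In the full set of libraries, RNA polymerase II and the proteasome had the highest shares of held genes among the lists of complexes. Of the 9 tested genes for subunits of RNA polymerase II, 6 held within 1.2-fold and none changed 2-fold. The small changes leaned downwards: 0 rose and 6 fell (66.7 %, against 40.8 % of all protein-coding genes), with log2 fold changes down to -0.39. The largest subunit gene rpb1 had 350.1 and 344 CPM with camptothecin and 350 and 359 CPM in untreated cells (95 % interval -0.09 to 0.03), and rpb2 had 565 and 546 CPM with camptothecin and 547 and 553 CPM in untreated cells (95 % interval -0.04 to 0.07). Of 26 tested proteasome genes 16 held, 8 of them in the core and 8 in the base and lid. Of the 26, 12 rose and 8 fell (46.2 and 30.8 %, against 34.7 and 40.8 % of all protein-coding genes). Their log2 fold changes all lay between -0.29 and 0.49. The base subunit gene rpt2 had 575 and 583 CPM with camptothecin and 581 and 580.1 CPM in untreated cells (95 % interval -0.05 to 0.04). Of the polymerase genes, rpb10 did not hold with the 4 libraries alone, without camptothecin replicate 1 or without untreated replicate 2. The shares that held, 66.7 and 61.5 %, stood above the 26.5 % of all protein-coding genes. Among all features with a mean of 100 to 1000 CPM over the 10 libraries, 38.0 % held. However, a gene with more reads has a narrower interval. Held features had a median of 129 CPM, and the 1024 features that neither passed nor held had a median of 3.36 CPM.

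Other structures had a lower share of held genes, from 51.6 % in the cytoskeleton to 20.0 % in splicing, against 26.5 % of all protein-coding genes. In the cytoskeleton 16 of 31 tested genes held, among them actin, act1, with 4239.7 and 4255 CPM with camptothecin and 4418 and 4480.1 CPM in untreated cells, and fimbrin, fim1, with 780.1 and 783 CPM with camptothecin and 719.6 and 725 CPM in untreated cells. Tropomyosin, cdc8, stood out in that list with 805 and 819 CPM with camptothecin and 394 and 389.6 CPM in untreated cells (log2 fold change 1.05 ± 0.019, edgeR adjusted p = 2.01e-50). The Arp2/3 subunit gene arc1 rose as well, with 467 and 468 CPM with camptothecin and 279.8 and 281 CPM in untreated cells. Of 14 vacuolar ATPase genes 6 held (42.9 %) and of 11 vesicle coat genes 5 (45.5 %). Of 15 exosome genes 5 held (33.3 %) and of 40 replication genes 13 (32.5 %), shares near that of all protein-coding genes. The coatomer gene sec28 is wholly covered by other features and stood under 2 CPM in all 4 libraries, so its 2-fold rise is uncertain. In replication the helicase subunit gene mcm3 fell, with 168 and 167 CPM with camptothecin and 264 and 267 CPM in untreated cells (log2 fold change -0.66 ± 0.027, edgeR adjusted p = 1.32e-31). The gene cdc1, for a small subunit of DNA polymerase delta, rose, with 70.7 and 68.9 CPM with camptothecin and 35.5 and 34.8 CPM in untreated cells (log2 fold change 0.99 ± 0.057, edgeR adjusted p = 7.37e-24). The gene pcn1, for the sliding clamp, held, with 374 and 373 CPM with camptothecin and 418 and 407 CPM in untreated cells. Nuclear pore genes held in 6 of 19 cases, or 3 without camptothecin replicate 1, and 15 of the 19 fell, with log2 fold changes down to -0.48, while nup124 rose, with 112 and 114 CPM with camptothecin and 62.7 and 63.5 CPM in untreated cells. The 15 falls made up 78.9 % of the tested nuclear pore genes, against 40.8 % of all protein-coding genes. The 6 that held made up 31.6 %, near the 26.5 % of all protein-coding genes. Splicing factor genes held in 9 of 45 cases (20.0 %).

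Among the 10 held protein-coding identifiers with the most counts, 8 have an annotation in the reference. The other 2, SPMIT.01 and SPMIT.05, are identifiers of the mitochondrial genome, with log2 fold changes of -0.09 and 0.11. Of 10 tested identifiers of that genome, 2 rose, 6 fell and 2 held, against 35.2, 35.9 and 22.2 % of all features. The summed share of that genome was 2.57 and 2.54 % of counts with camptothecin and 3.16 and 3.11 % in untreated cells. The heat shock protein gene hsp9 had 3436 and 3449 CPM with camptothecin and 3454 and 3520.2 CPM in untreated cells (95 % interval -0.06 to 0.02). The aldolase gene fba1 had 3306 and 3334 CPM with camptothecin and 3178 and 3302 CPM in untreated cells (95 % interval -0.01 to 0.08), and the phosphoglycerate mutase gene gpm1 had 5915 and 6033 CPM with camptothecin and 6288 and 6485 CPM in untreated cells. The ribosomal protein genes rps102, rps21 and ubi5 (fused to ubiquitin), tma19, annotated as a translationally controlled tumour protein, and act1 make up the rest of the 8. Their log2 fold changes ran from -0.17 ± 0.017 in tma19 to 0.19 ± 0.017 in rps21, so the same call covers small shifts in both directions. Of the 1273 held features 643 also passed the test and 630 did not.

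**Figure D4:**
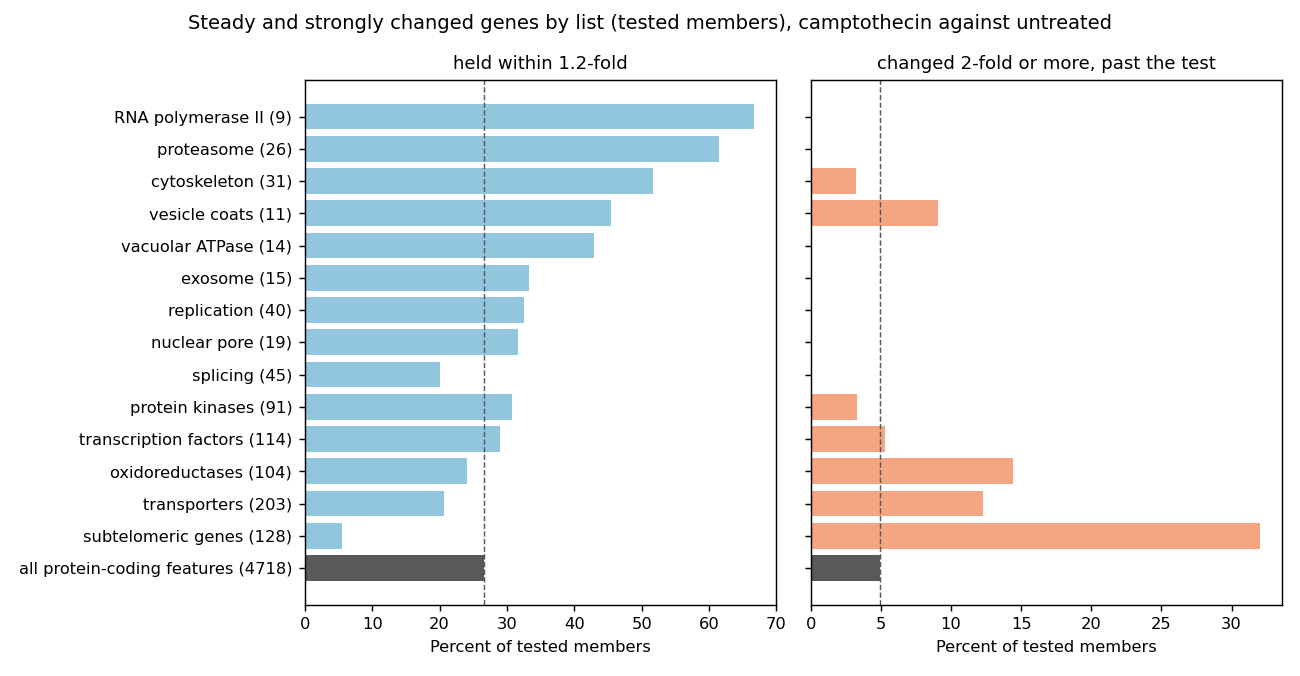
Percent of tested members that held within 1.2-fold (left panel) and that changed 2-fold or more past the test (right panel), by list, with the number of tested members in brackets; the dark bar and the dashed line give all tested protein-coding genes. RNA polymerase II reached 66.7 % held and subtelomeric genes 5.47 %, against 26.5 %. At a mean of 10 CPM or more over the 10 libraries (not drawn), 9.09 % of subtelomeric genes held, against 29.8 % of protein-coding genes. The vesicle coat bar at 2-fold is sec28 alone.

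Camptothecin was also set against the mean of the other 3 agents, a comparison with no untreated library in it, in which all cells had the change of medium and 8 h of treatment. Here 2264 features (39.5 %) were higher with camptothecin and 2273 (39.6 %) lower, 145 (2.53 %) were 2-fold or more higher and 475 (8.28 %) 2-fold or more lower. In all 79.1 % of features differed in either direction. Both comparisons use the same 2 camptothecin libraries, so they are not independent. All 10 largest rises were higher with camptothecin than with the other agents. For cmt2 the mean level was 2719 CPM with camptothecin, 121 with hydroxyurea, 546 with MMS and 193 with phleomycin (log2 difference 3.54 ± 0.014, edgeR adjusted p = 2.28e-88). For yhb1 it was 1916 CPM with camptothecin, 471 with hydroxyurea, 649 with MMS and 424 with phleomycin (log2 difference 1.92 ± 0.014). The difference of SPAPJ691.02 was small (0.14 ± 0.054) and missed the threshold with scaling by library totals and without camptothecin replicate 2.

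All 10 largest falls were lower with camptothecin than with the other agents. For sod1 the means were 238 CPM with camptothecin, 604 with hydroxyurea, 1231 with MMS and 1501 with phleomycin (log2 difference -2.13 ± 0.017, edgeR adjusted p = 8.96e-71). For str1 the means were 71.2 CPM with camptothecin, 116 with hydroxyurea, 446 with MMS and 73.7 with phleomycin, the last close to camptothecin (log2 difference of camptothecin from the mean of the 3, -1.14 ± 0.027). Of other genes that fell against untreated cells, aat1, sul2 and ght5 were higher with camptothecin than with the other agents (log2 differences 0.11 ± 0.016, 0.47 ± 0.029 and 0.66 ± 0.015).

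The copper uptake gene ctr4 averaged 297 CPM with camptothecin, 328 with hydroxyurea, 124 with MMS and 36.4 with phleomycin (log2 difference 1.38 ± 0.024). The gene zym1 was lower with camptothecin than with the others (log2 difference -0.58 ± 0.019), with 259.6 CPM with camptothecin, 279 with hydroxyurea, 781 with MMS and 267 with phleomycin. Subtelomeric genes were more often lower than higher in this comparison: 70 of 128 were lower and 44 higher, 33 and 18 of these by 2-fold or more, and the median log2 difference was -0.32, against 0.04 over all 4718 protein-coding genes, of which 1729 were lower and 2108 higher. Their share of all counts was 1.60 and 1.59 % with camptothecin and lay between 1.36 and 1.41 % in the 6 libraries of the other agents. Without cmt2 and yhb1 the order turned round, with 1.16 % in both camptothecin libraries and 1.29 to 1.30 % in the 6 others.

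**Figure D5:**
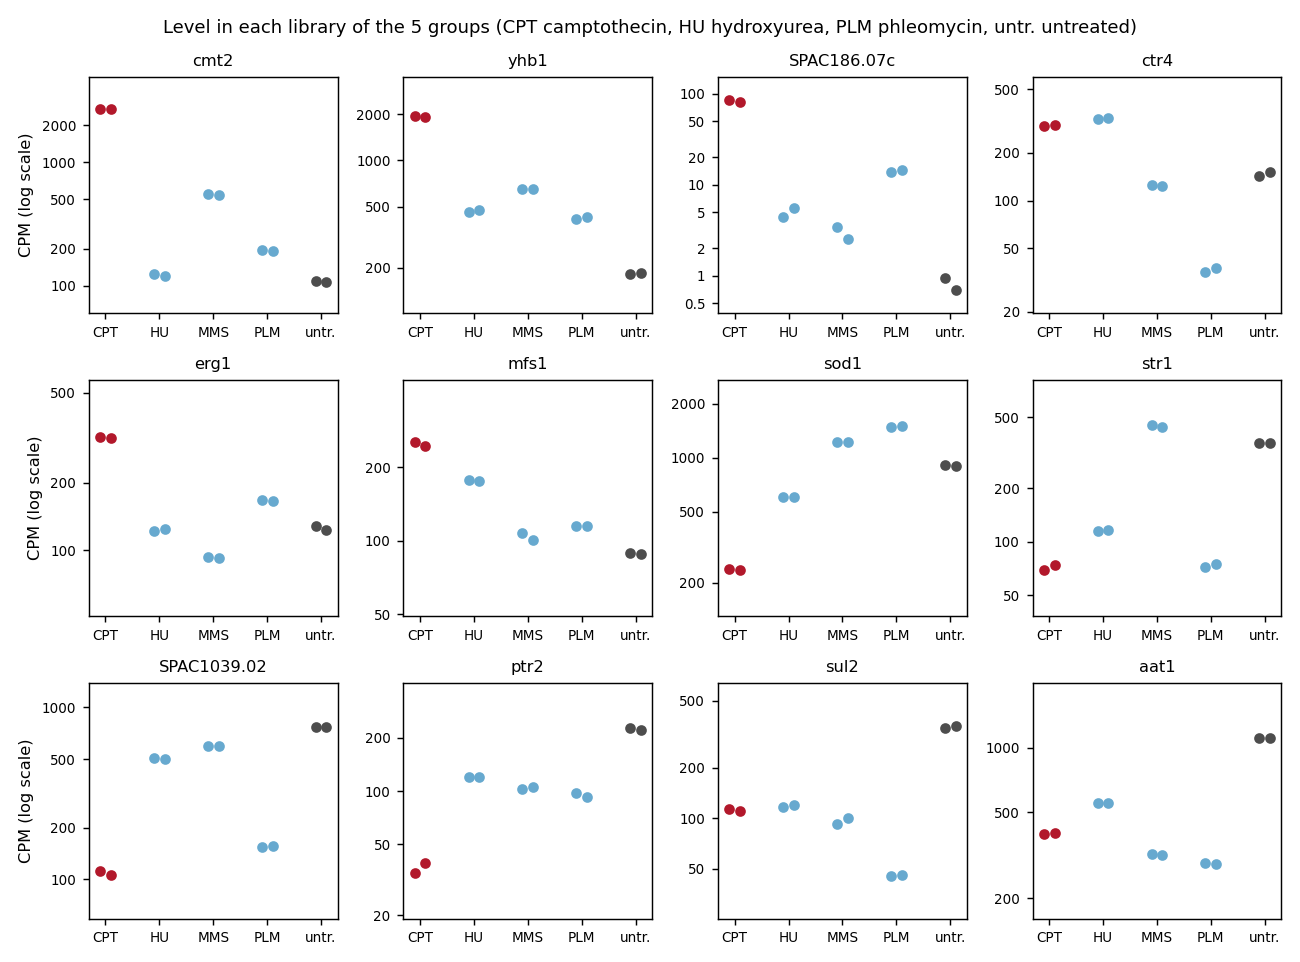
CPM on a log axis in each library of the 5 groups for 12 genes, with camptothecin on the left, then hydroxyurea, MMS and phleomycin, and untreated on the right; each point is 1 library. For cmt2, yhb1, SPAC186.07c, erg1 and mfs1 both camptothecin libraries lie above the other 8, and for sod1, SPAC1039.02 and ptr2 below them.

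RNA came from whole cultures, so fewer cells with a transcript and less transcript per cell cannot be told apart in any of these comparisons.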

How the data were processed

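Total RNA of fission yeast was sequenced in 10 libraries, and the authors deposited 1 table of raw read counts per gene for all libraries. HISAT2 and StringTie are named per the submitters' processing notes. The build, gene models, strandedness and counting program were not given in the sources used here, so overlapping features may share reads.

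Library totals ran from 37301356 to 48598533 counts. Counts were scaled by TMM (factors 0.944 to 1.09), filtered with filterByExpr and fitted with edgeR 4.0.16 (R 4.3.3) in 1 quasi-likelihood model of 5 groups with 5 residual degrees of freedom, and p-values were adjusted by Benjamini-Hochberg over 5734 features. Names, gene order, overlaps and copies came from the ASM294v3 RefSeq annotation (6540 identifiers matched by locus tag, 11 by synonym, 110 not matched), with copies found by blastn 2.17.0+ at 95 % identity over 50 % of the length. A feature counted as covered when others overlap 75 % or more of it. The 110 identifiers with no match counted as protein-coding unless named as an RNA. Their overlaps and copies could not be checked, and they were treated as neither covered nor copied.

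Replicate numbers did not pair the libraries (correlations of deviations between groups -0.053 to 0.037). On simulated data of 5701 features for the comparison with untreated cells, 84 % of 1.25-fold and 96 % of 2-fold rises and 82 % of 0.8-fold and 98 % of 0.5-fold falls were recovered. Among unchanged features 12 were called falsely, and 78 % held within 1.2-fold. The simulation gave all features the same spread and changed 200 of them, while 71.2 % of features passed in the data. These rates therefore need not hold for the data.

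Named genes were the 10 largest rises and falls, members of the metal, hexose, amino acid, galactose and topoisomerase lists, up to 4 members of each other list by adjusted p and up to 2 held members by CPM, 10 subtelomeric genes by size of change, the 10 held genes with the most CPM, and yhb1. Members and lists were chosen with earlier results of these data known. Alternatives were other scalings (DESeq2 1.42.0 size factors, library totals, quantile normalization in limma 3.58.1), DESeq2, no filter, the replicate block, each library left out, the 4 libraries alone, other bounds and numbers of outermost genes and, added after the data were seen, leaving out covered and copied features.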

Additional observations from a re-analysis of the deposited data

How the results depend on the processing

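Recomputed under the alternatives, counts over all features, the subtelomeric genes and the lists together stayed within 1.5 times the reported value in 128 cases and moved further in 8. Counts and medians of single lists stayed so in 1278 cases and moved in 66, of which 19 came with the 4 libraries alone. For named genes the call was kept in 2446 cases, lost in 43 and gained in 16. Quantile normalization gave 231 features that rose and 138 that fell 2-fold or more, in place of 366 and 84. Leaving out covered features and near-identical copies, chosen after seeing the data, gave 229 features that rose 2-fold or more and 37 subtelomeric genes that rose, in place of 62. The held count was 783 with the 4 libraries alone, 321 with a bound of 1.1-fold and 3438 with 1.5-fold, in place of 1273. Of the genes tested among the 20 outermost of each end 18.2 % fell, against 28.1 % among the 40 outermost. With each of the 4 libraries left out in turn, 1852 to 1873 features rose, 1908 to 1930 fell, 349 to 365 rose and 81 to 86 fell 2-fold or more, and 961 to 1024 held. With the replicate block, 1960 features rose, 2018 fell, 360 and 82 did so 2-fold or more, 1275 held, and 60 subtelomeric genes rose and 35 fell; it changed none of these counts by 1.5 times. Of the named genes, 1 changed direction: the log2 fold change of act1 was 0.017 under quantile normalization and -0.067 as reported, and negative under each other alternative. The interval for the held call multiplies the SE by a factor set by the residual degrees of freedom. These were 5 in the full fit and fewer with libraries left out, which makes that factor larger. The part of this in the held counts, and the cause of the other differences, was not tested. Depth limits what can be called steady: no feature under 10 CPM held within 1.2-fold.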
